A study of Lumnitzera littorea with 6 samples.

Results

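The gene models described here are the 150 expressed leaf genes of *L. littorea* with the highest ratio of salt stress to CK, out of 26139 gene models counted. *L. littorea* is a mangrove tree, and its seedlings, about a year old and grown from seed of one bay, received either saline water with 400 mM NaCl for 3 days (salt stress) or fresh water (CK). Leaf RNA was sequenced in 3 salt stress and 3 CK libraries, and the deposited values are reads counted per gene model, with totals between 16403150 and 19456211 in salt stress and between 16273192 and 19433684 in CK. Levels are given in CPM, the count of a gene model relative to its library's total, scaled by TMM to allow for differences in library composition. Members had to reach a mean of at least 5 CPM in CK and not be among the 100 most abundant gene models. These conditions left 14203 eligible gene models, and the 150 with the highest log2 ratio of mean salt stress CPM to mean CK CPM were taken. The members were thus chosen by their measured CPM in salt stress and CK, and every difference between salt stress and CK given for them is a description, not a test.

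Salt reaches a leaf first as a shortage of water and then as a load of sodium and chloride ions. Plants are known to answer through the hormone abscisic acid, by making compatible solutes and protective proteins, and by moving ions into the vacuole, and mangroves do so at salinities that most plants do not survive. Which of these roles the members have cannot be said here, since the files pair the gene models with no names or functions, and the leaf label could not be checked against marker genes for the same reason. The study names only the *LlMADS* genes, transcription factors best known for flower development. All 63 of them were found in the table, 6 were eligible and 0 were members. The highest *LlMADS* log2 ratio among the eligible ones was 0.75, at rank 1189. Members are given below by rank, and only the one with the highest ratio and the one with the highest level in salt stress are given by identifier.

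All 150 members passed the thresholds of the study's methods (absolute log2 fold change above 1, adjusted p under 0.05) in edgeR's quasi-likelihood test, against 12.1% of the 18073 gene models tested that were called higher and 5.21% of the eligible ones. Nothing is read from that count, because the rule used this contrast. In every member all 3 salt stress libraries lay above all 3 CK libraries, which was so for 34.1% of the eligible gene models. The lowest salt stress value was at least 3.06 times the highest CK value in each member, with a median of 3.84 times. The counts behind these values were not low, with at least 78 counts in every CK library for every member. Together the members took 1.57%, 1.59% and 1.67% of all counts in salt stress replicates 1, 2 and 3, against 0.295%, 0.345% and 0.307% in CK replicates 1, 2 and 3. In all, 2195 tested gene models were called higher and 1287 lower, or 1856 and 1816 when libraries were scaled by total counts alone, with the median over all tested gene models then at -0.18 on the log2 scale.

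Ratios fell steeply over the first ranks and were nearly level afterwards. The highest was 31.3-fold and the lowest 4.35-fold, with a median of 4.80-fold. Only 15 members exceeded 8-fold, and 100 of the 150 stayed under 5-fold. The last member had a log2 ratio of 2.1200 and the first gene model outside the list 2.1196, so that the end of the list marks no step in the data. The 3 members at its end had log2 ratios between 2.12 and 2.13, and the 3 gene models after it had 2.12 each. At the floor of the rule, the member with the lowest CK level averaged 5.02 CPM in CK, while gene models with high ratios but 4.93, 4.85 and 4.75 CPM in CK were left out. In total 812 tested gene models had a higher ratio than the last member but a CK level under the floor, and 3 were excluded as too abundant.

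evm.model.40.231 (gene model 231 on scaffold 40) had the highest ratio. Its level was 202, 197 and 184 CPM in salt stress replicates 1, 2 and 3, against 7.04, 5.14 and 6.47 CPM in CK replicates 1, 2 and 3. It averaged 195 ± 9.12 CPM in salt stress and 6.22 ± 0.976 CPM in CK (SD, n = 3 each), and its fitted log2 fold change was 4.96 (edgeR adjusted p = 5.46e-39). The groups lay far apart, and the salt stress libraries had a coefficient of variation (SD over mean) of 4.69%. The member at rank 2 had 153, 163 and 179 CPM in the salt stress libraries, against 5.42, 6.24 and 6.76 CPM in the CK libraries. The member at rank 3 had 319, 319 and 304 CPM in salt stress, against 13.9, 12.8 and 14.1 CPM in CK. At rank 4 the salt stress libraries gave 112, 105 and 110 CPM and the CK libraries 4.56, 4.62 and 5.89 CPM, the lowest mean CK level of all members. The member at rank 5 had 99.6, 95.7 and 101 CPM in salt stress, against 7.30, 6.01 and 8.02 CPM in CK. In these first 5 members no library was the highest of its group every time. A salt stress library stood apart at rank 11, where salt stress replicate 3 had 191 CPM, against 146 and 149 CPM in salt stress replicates 1 and 2, while the CK libraries had 17.1, 16.7 and 16.9 CPM.

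**Figure D1:**
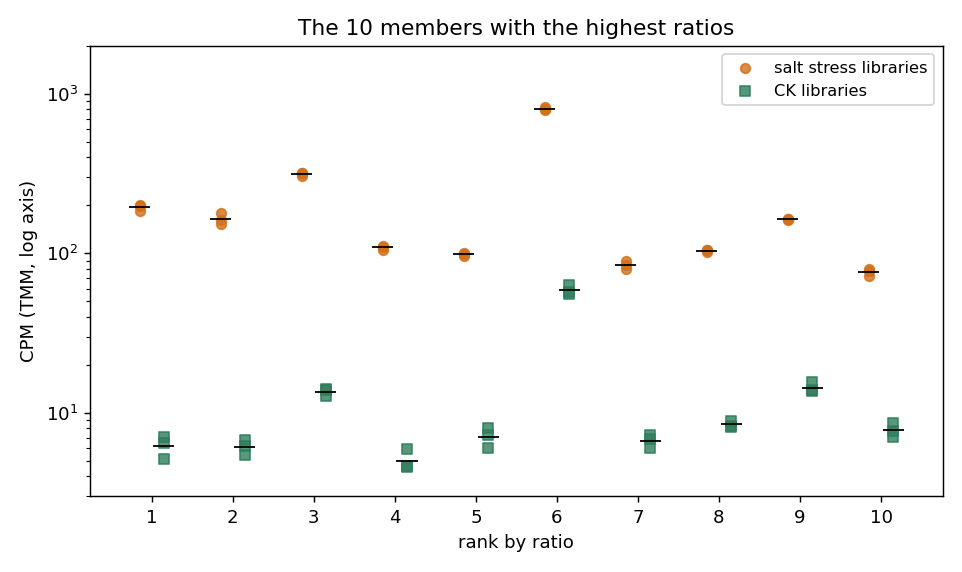
CPM (log axis) in each library for the 10 members with the highest ratios, with salt stress libraries as circles left of CK libraries as squares, and bars at the means of 3 libraries. In each of the 10 the salt stress and CK libraries are clearly apart, and the member at rank 6, with means of 807 CPM in salt stress and 58.9 CPM in CK, is the most abundant of them.

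evm.model.64427.51 (gene model 51 on scaffold 64427) had the highest level in salt stress, 1152, 1107 and 1252 CPM in replicates 1, 2 and 3, against 157, 156 and 147 CPM in the CK libraries. Its fitted log2 fold change was 2.93 (edgeR adjusted p = 9.35e-30), and it stood at rank 16 by ratio. The second most abundant member had 1025, 1011 and 1136 CPM in salt stress, against 206, 193 and 195 CPM in CK, and stood only at rank 36 by ratio. The third had 975, 991 and 1086 CPM in salt stress and 127, 136 and 139 CPM in CK. The fourth, at rank 6 by ratio, had 829, 804 and 789 CPM in salt stress and 63.5, 55.7 and 57.6 CPM in CK. The fifth had 598, 587 and 573 CPM in salt stress, against 126, 130 and 123 CPM in CK. These abundant members all lay on scaffolds with many gene models.

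Place in the assembly, which the rule did not use, split the members into a pair of sets. A gene model's name gives its scaffold, the assembled piece of the genome, and its place along it. Of the 868 scaffolds in the table, 736 carried at most 10 gene models and are called short here, a limit chosen after the values had been seen. On these short scaffolds lay 90 of the 150 members (60%), against 3.03% of the eligible gene models and 3.69% of the tested ones. The other 60 members lay on 37 long scaffolds, none of which carried fewer than 38 gene models, while no short scaffold with a member carried more than 7. With the limit at 20 gene models the count was 90 as well, and with the limit at 5 it was 51. No more than 5 members shared a long scaffold, and that scaffold held 730 tested gene models. For comparison, 5 of the 150 eligible gene models with the lowest ratios (3.33%) lay on short scaffolds. Of the tested gene models on short scaffolds, members included, 42.3% were called higher in edgeR, against 11% of those on long scaffolds, and among the eligible ones the shares were 28.8% and 4.47%. Short scaffolds held 12.8% of all gene models called higher and 2.80% of those called lower.

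**Figure D2:**
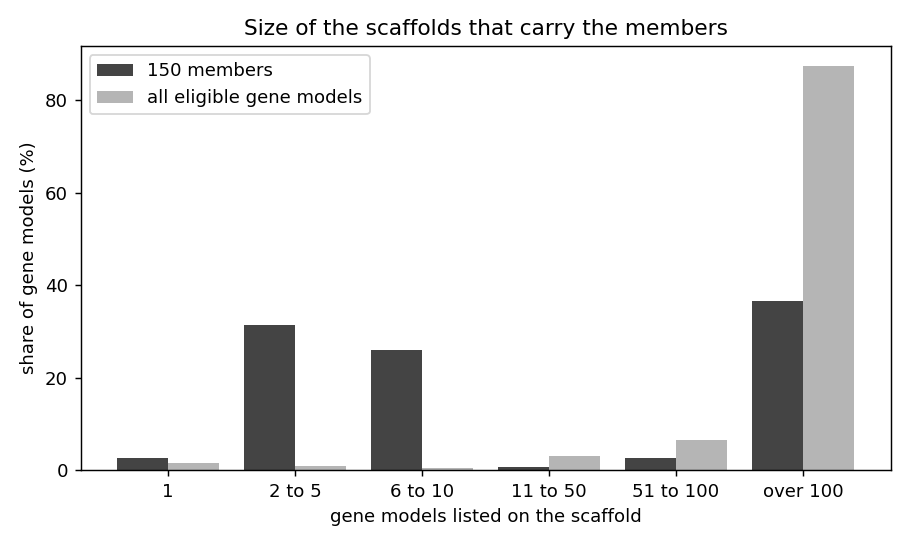
Share of gene models (%) by the number of gene models listed on their scaffold, for the 150 members (dark bars) and for all 14203 eligible gene models (grey bars). Scaffolds with 2 to 10 gene models carry 31.3% and 26% of the members in their 2 classes but 0.908% and 0.528% of the eligible gene models.

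The short-scaffold members filled the flat part of the ranking. There were 0 of them among the first 20 ranks, 12 among ranks 1 to 50, 38 among ranks 51 to 100 and 40 among ranks 101 to 150, and a further 25 short-scaffold gene models stood among the next 150 ranks. Their log2 ratios had quartiles at 2.18 and 2.27 and an SD of 0.12 across 90 gene models. The 60 long-scaffold members had quartiles at 2.27 and 2.97 and an SD of 0.69. The rule cut both sets off below 2.12, and short-scaffold gene models continued past that cut, so the narrow spread is partly set by the rule. All 15 members above 8-fold were on long scaffolds. The first short-scaffold member, at rank 21, had 94.9, 98.9 and 97.3 CPM in the salt stress libraries, against 14.1, 14.5 and 14.1 CPM in the CK libraries. Its libraries lay closer together than those of most others of its kind. Member levels on short scaffolds ran from 29.7 to 124 CPM in salt stress and from 6.70 to 23.6 CPM in CK. On long scaffolds they ran from 24.5 to 1170 CPM in salt stress and from 5.02 to 198 CPM in CK. The rule removed low levels in both sets, and 57 tested gene models on the short scaffolds with a member were under the CK floor.

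**Figure D3:**
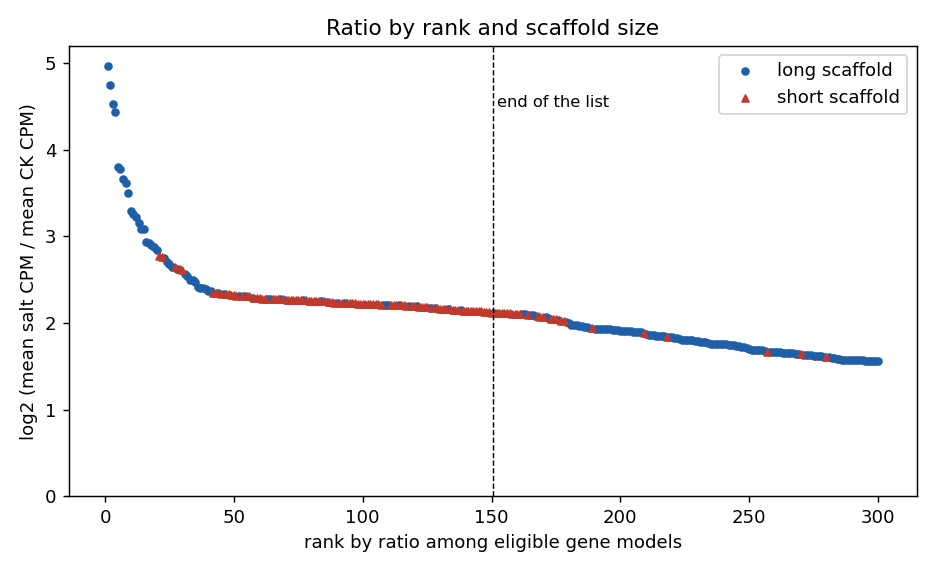
Log2 ratio of mean salt stress CPM to mean CK CPM (vertical) against rank (horizontal) for the first 300 eligible gene models, by scaffold size, with a dashed line at the end of the list. Long-scaffold gene models hold the first 20 ranks, and short-scaffold gene models fill most of the plateau near a log2 ratio of 2.2 and continue past the end of the list.

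**Figure D4:**
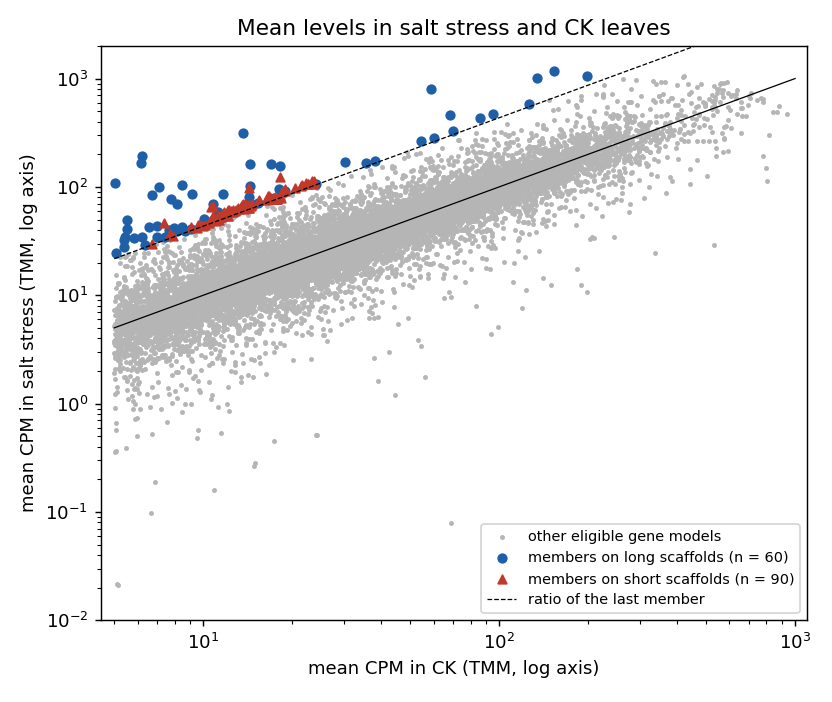
Mean CPM in salt stress (vertical, log axis) against mean CPM in CK (horizontal, log axis) for the 14203 eligible gene models, with the 60 members on long scaffolds as circles and the 90 on short scaffolds as triangles. The solid line marks equal levels and the dashed line the 4.35-fold ratio of the last member. Members on short scaffolds form a narrow band just above the dashed line, while those on long scaffolds spread upwards from it.

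Members on short scaffolds also tended to stand side by side. Of the 57 short scaffolds with a member, 33 carried 2 and 24 carried 1, and in each of the 33 the members were in adjacent places. In all, 68 of the 150 members (45.3%) had another member in the next place, against 0.915% of the eligible gene models, and only 2 of the 68 were on a long scaffold. This count depended on the rule, since 8 of 150 were adjacent with a CK floor of 2 CPM and 12 of 100 in a list of 100 gene models. That pair, at ranks 68 and 84, had 40.6, 38.2 and 39.8 CPM in salt stress against 8.66, 8.43 and 7.44 CPM in CK for the first, and 56.7, 59.0 and 57.9 CPM in salt stress against 13.5, 11.7 and 11.2 CPM in CK for the second. Within the pairs on short scaffolds the median difference was 1.31-fold in salt stress level and 0.08 in log2 ratio, values that the rule confined and that were not compared with those between unpaired members. On short scaffolds with at least 5 gene models there were 30 pairs, of which 21 held the first or the last places. The share expected from the number of places alone was not computed, so nothing is read from this count. The scaffold whose members had the highest summed salt stress level is given as an example, with its pair at neither end. Its 7 gene models held a pair at places 2 and 3, the first with 1986, 1740 and 1892 counts in the salt stress libraries, against 390, 527 and 427 counts in the CK libraries. The second had 1360, 1143 and 1361 counts in salt stress, against 283, 395 and 336 counts in CK. The gene model beside them at place 4 had only 10, 10 and 16 counts in salt stress and 2, 8 and 5 counts in CK, and none of the remaining places exceeded 27 counts in any library. Across these 57 scaffolds 274 gene models were listed. Of these, 118 were not tested. Of the 66 that were tested and not members, 57 were under the CK floor. The median levels of the 66 were low, 1.64 CPM in salt stress and 0.624 CPM in CK. In edgeR 64 of the 66 were called higher and 0 lower, against 12.1% and 7.12% of all tested gene models. Their median log2 fold change was 2.13. Gene models this low could pass the count filter through the salt stress libraries alone, which favours calls higher among those tested. Nothing is therefore read from this count. The others there that met the floor had log2 ratios between 2.02 and 2.12, just short of the list.

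The spread between libraries, which the rule did not use either, differed between these sets. Among the 90 short-scaffold members the median level was 61.3, 62.3 and 70.2 CPM in salt stress replicates 1, 2 and 3, against 11.7, 16.4 and 12.8 CPM in CK replicates 1, 2 and 3. By these medians CK replicate 2 was the highest of the CK libraries, and salt stress replicate 3 the highest of the salt stress libraries. This held for nearly every such member: 86 of 90 were highest in CK replicate 2 among the CK libraries, and 87 of 90 were highest in salt stress replicate 3 among the salt stress libraries. The shares among all eligible gene models were 34.2% and 36.6%. The ratio of CK replicate 2 to CK replicate 1 had a median of 1.47 and quartiles of 1.37 and 1.57 in the short-scaffold members, against quartiles of 0.950 and 1.05 in all eligible gene models. The order CK replicate 2 over 3 over 1 was seen in 80 of the 90, against 19.0% of the eligible gene models. The 340 eligible gene models on short scaffolds that were not members lay far nearer to all eligible gene models than to the short-scaffold members. Among them 42.6% were highest in CK replicate 2 and 40% in salt stress replicate 3. Their median ratio of CK replicate 2 to CK replicate 1 was 1.02, and their median coefficient of variation in CK was 4.74%. However, 226 of the 430 eligible gene models on short scaffolds, members included, were alone on their scaffold, against 4 of the 90 members. Only 9 tested non-members that met the CK floor shared a short scaffold with a member, and their order was not counted. The first short-scaffold gene model after the list had 9.42, 15.9 and 11.3 CPM in CK and 47.1, 49.7 and 62.5 CPM in salt stress. The next had 5.83, 8.43 and 6.47 CPM in CK, but 29.5, 30.4 and 30.1 CPM in salt stress.

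The 60 long-scaffold members showed no such order. Their median level was 81.5, 82.2 and 81.7 CPM in the salt stress libraries, against 10.4, 10.7 and 11.1 CPM in the CK libraries. Among them 17 were highest in salt stress replicate 3 and 18 in CK replicate 2, and the order CK replicate 2 over 3 over 1 was seen in 8. Their median coefficient of variation was 3.93% in salt stress and 7.23% in CK, beside expected counting errors of 2.71% and 6.91%. For the short-scaffold members it was 8.14% in salt stress and 20.8% in CK, against 3.05% and 6.19% from counting error, and for all eligible gene models 5.14% in salt stress and 4.18% in CK. The 150 eligible gene models with the lowest ratios had 15.1% in salt stress and 5.21% in CK, beside expected counting errors of 16.0% and 5.65%. A median coefficient over 3 libraries tends to fall below the expected error, so values close to it are not shown to be counting error alone. The wide spread of the whole list in CK, a median of 16.2%, rested on a single library: it was 6.72% without CK replicate 2. Likewise the median in salt stress of 6.75% was 2.55% without salt stress replicate 3. CK replicate 2 was the CK library with the fewest counts, 16273192, whereas salt stress replicate 3 was not the smallest of its group. The part of depth in this order was not tested. Beside this spread, the adjusted p in edgeR had a median of 2.42e-07 over the short-scaffold and 3.38e-28 over the long-scaffold members.

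**Figure D5:**
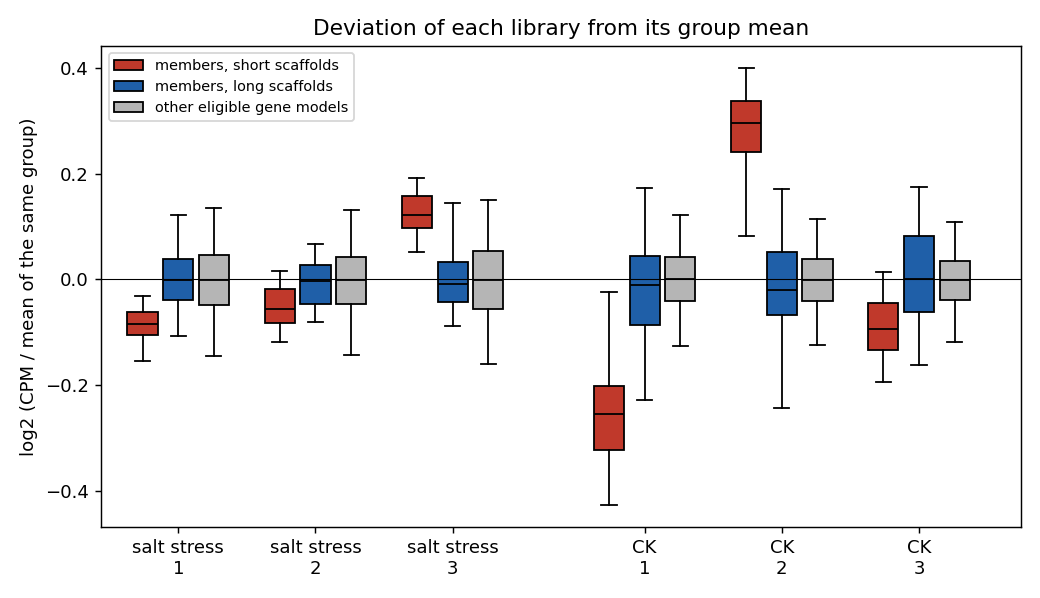
Log2 of each library's CPM over the mean CPM of its own group, for the 90 short-scaffold members, the 60 long-scaffold members and the other eligible gene models (boxes, quartiles with the median; whiskers, 5th to 95th percentile). The short-scaffold members are shifted together, upwards in salt stress replicate 3 and CK replicate 2 and downwards in CK replicate 1, while the medians of the other sets lie close to 0 in every library.

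Whether the short-scaffold members are near-identical copies that share reads was not tested, because no sequence was used here, and how reads with several matches were counted is not stated in the labels or methods. If they do, their counts cannot be assigned to single gene models. When the rule was applied to long scaffolds only, the list of 150 reached down to a log2 ratio of 1.66. It included the same 60 long-scaffold members, which follows from ranking by the same ratio.

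The gene models next to the long-scaffold members were also examined. Of the 68 that were tested and not members, 12 (17.6%) were called higher and 5 (7.35%) lower in edgeR, against 12.1% and 7.12% of all tested gene models. Their median log2 fold change was -0.04.

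Membership was also read in libraries that the rule had not used. When the rule was applied without a library, between 136 and 148 of the 150 members were chosen again, and 113 were chosen without every library in turn, 70 of them on short and 43 on long scaffolds. The left-out library then fell on the same side in all 150 gene models each time. A left-out salt stress library lay above every CK library, and a left-out CK library below every salt stress library. The share of all eligible gene models that would do so was not computed. With all 6 libraries, every salt stress library lay above every CK library in 34.1% of them. The median log2 ratio read in the left-out library lay between 2.01 and 2.49. The lowest of these medians belonged to CK replicate 2 and the highest to CK replicate 1, against 2.41 and 2.18 in the libraries used for the choice. CK replicate 2 was also the CK library in which most short-scaffold members were highest. The libraries of the other group were used both in choosing and in reading these values, so they are a description only.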

How the data were processed

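The authors checked reads with FastQC, aligned them to the *L. littorea* genome with HISAT2 and counted them per gene model with featureCounts. The deposited values are raw counts, 1 column for each of the 6 libraries (0 columns were left unassigned). How strand and reads with several matches were handled is not stated in the labels or methods. RNA was extracted per plant, and the study's methods describe 3 biological replicates for the treatment group. The labels do not tie each library to a plant, so p-values measure the spread between these libraries.

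From the counts, edgeR 4.0.16 in R 4.3.3 was used: filterByExpr (minimum count 10), TMM, a robust quasi-likelihood fit on condition and Benjamini-Hochberg adjustment over 18073 gene models. Alternatives were other scalings and filters, DESeq2 1.42.0, limma 3.58.1 (voom), a replicate block, other settings of the rule and each library left out. Counting errors are Poisson (the inverse square root of the mean count), cover counting error only and are not adjusted for the small number of libraries. Members and lists were chosen with earlier results of these data known. By a rule written for the case without gene names, the member with the highest ratio and the one with the highest salt stress CPM are named, and others are given by rank (ranks 11 and 21 were picked after their values were seen). The planned lists of salt response genes and leaf cell markers could not be used, since gene models carry no names.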

Additional observations from a re-analysis of the deposited data

How the results depend on the processing

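All 150 members were called higher in every fit, in edgeR under each scaling and filter, in DESeq2 and in limma voom. The rule made this likely, since it used the same contrast. Of all gene models tested, 12.1% were called higher in edgeR and 11.9% in DESeq2. The replicate block left the median log2 fold change of the members at 2.27. Same-numbered libraries did not deviate together (correlations of 0.04, -0.02 and 0.01 for numbers 1, 2 and 3). With 3 libraries per group this cannot tell whether the samples were paired. A CK floor of 2 CPM kept 79 members and left 8 gene models of the new list with an adjacent one, and a list of 100 left 12 with an adjacent one and 50 on short scaffolds. Short scaffolds limited to 5 gene models held 51 members. The split by scaffold was added after seeing the data. Without the short-scaffold members, 60 remained, 2 of them adjacent, with median coefficients of variation of 3.93% in salt stress and 7.23% in CK. All 60 were called and without overlap between groups, which the rule made likely. Of the eligible gene models on long scaffolds 4.47% were called higher. In 34.1% of all eligible ones every salt stress library lay above every CK library. The rule applied to long scaffolds only kept 60 members, with 8 adjacent, a median log2 fold change of 1.97 and coefficients of 4.43% in salt stress and 6.29% in CK. These shifts follow from which gene models are left. With 1 library left out, the median coefficient of variation lay between 2.55% and 8.48% in salt stress and between 6.72% and 20.2% in CK, and the members on short scaffolds numbered between 80 and 104. The lowest total of a member over the 6 libraries was 1517 counts. The median CK spread of the long-scaffold members was 7.23%, beside an expected counting error of 6.91%. How far it exceeds counting error was not tested.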
